A study of Drosophila melanogaster with 6 samples.

Results

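Mitochondrial ribosomal protein genes were taken as the genes whose name in the authors' comparison starts with mRpL or mRpS followed by a number. The pattern found 72 of 7762 genes, 46 named for the large subunit and 26 for the small subunit. It uses names and no measured values. Of the 73 genes so named in the Ensembl annotation, mRpL53 was not analysed here. RNA had been sequenced from haltere imaginal discs (3 samples) and wing imaginal discs (3 samples), the larval epithelia that form the haltere and the wing. All discs came from wild-type Canton S larvae of Drosophila melanogaster at the wandering third-instar stage, with no transgene or treatment named. The labels do not say how many discs or larvae entered a sample.

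The mitochondrial ribosome translates the few mRNAs of the mitochondrial genome, which encode core subunits of the respiratory chain and of ATP synthase. Its RNAs come from the mitochondrial genome, and all of its proteins in animals are encoded in the nucleus, translated in the cytosol and imported. Part of these proteins belong to families shared with the bacterial ribosome, and the others arose in the mitochondrial lineage. Imaginal discs grow by cell division through larval life, and growing tissue needs both cytosolic and mitochondrial ribosomes.

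Each gene had 1 log2 fold change, 1 mean expression over both tissues in log2 CPM (read counts put on one library size) and an edgeR p-value with its false discovery rate (FDR), all from the authors' deposited table. Values per sample and library depths were not analysed here, so the replicates of a gene cannot be shown. Neither the table nor the labels name the numerator of the fold change. Ubx, the homeotic gene that specifies the haltere, had a log2 fold change of -5.22 (FDR 2.98e-59, edgeR) in the authors' deposited table. Positive values are therefore read as higher in the wing disc, which is an assumption taken from Ubx. A rough standard error was obtained for each gene as the size of its log2 fold change over the standard normal score that matches its p-value. It was computed only below a p-value of 0.9, since the division loses meaning near 1, and it gave 64 of the 72 genes an error.

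The mitochondrial ribosomal protein genes leaned together, by a little, towards the wing disc, and no single gene passed the test. Of the 72 log2 fold changes in the authors' deposited table, 67 were positive and 5 were negative, whereas 50.1% of all genes were positive. The median was 0.26, a wing to haltere ratio of 1.20, with quartiles of 0.12 and 0.39. Over all genes the median in the authors' deposited table was 0.00047, with quartiles of -0.17 and 0.16. At an FDR under 0.05 (edgeR), 0 of the 72 genes were called, beside 1.34% of all genes. At an unadjusted p-value under 0.05 (edgeR) the count was also 0, beside 4.32% of all genes. The smallest p-value was 0.0527 (edgeR, FDR 1), for mRpL23 in the authors' deposited table.

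The errors show what these data could and could not call. The rough standard error of a gene had a median of 0.37 on the log2 scale and ran from 0.25 for mRpL39 to 0.61 for mRpS21. The largest p-value called in the authors' deposited table was 0.000653, and at that p-value a gene with the median error would have needed a log2 change of 1.27. The change needed was smallest for mRpL39, at 0.85, and largest for mRpS21, at 2.09. The largest change observed, 0.65, was below all of these. Every one of the 64 rough 95% intervals included 0. This restates the p-values (edgeR), since the errors were derived from them and none was under 0.05. Every interval also included the group's median. The 8 genes without an interval had the lowest fold changes of the members, among them all 5 negative ones, so this does not cover them. For 26 of the 64 genes the upper bound was under 1, that is under a 2-fold difference. The standard deviation of the fold changes across the 72 genes was 0.16, smaller than the error of any of the 64 genes. These errors do not allow the members to be ranked against each other. A spread smaller than every error can arise if the same libraries moved the members together, or if the rough errors are too large. These cannot be told apart from 1 value per gene.

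**Figure D1:**
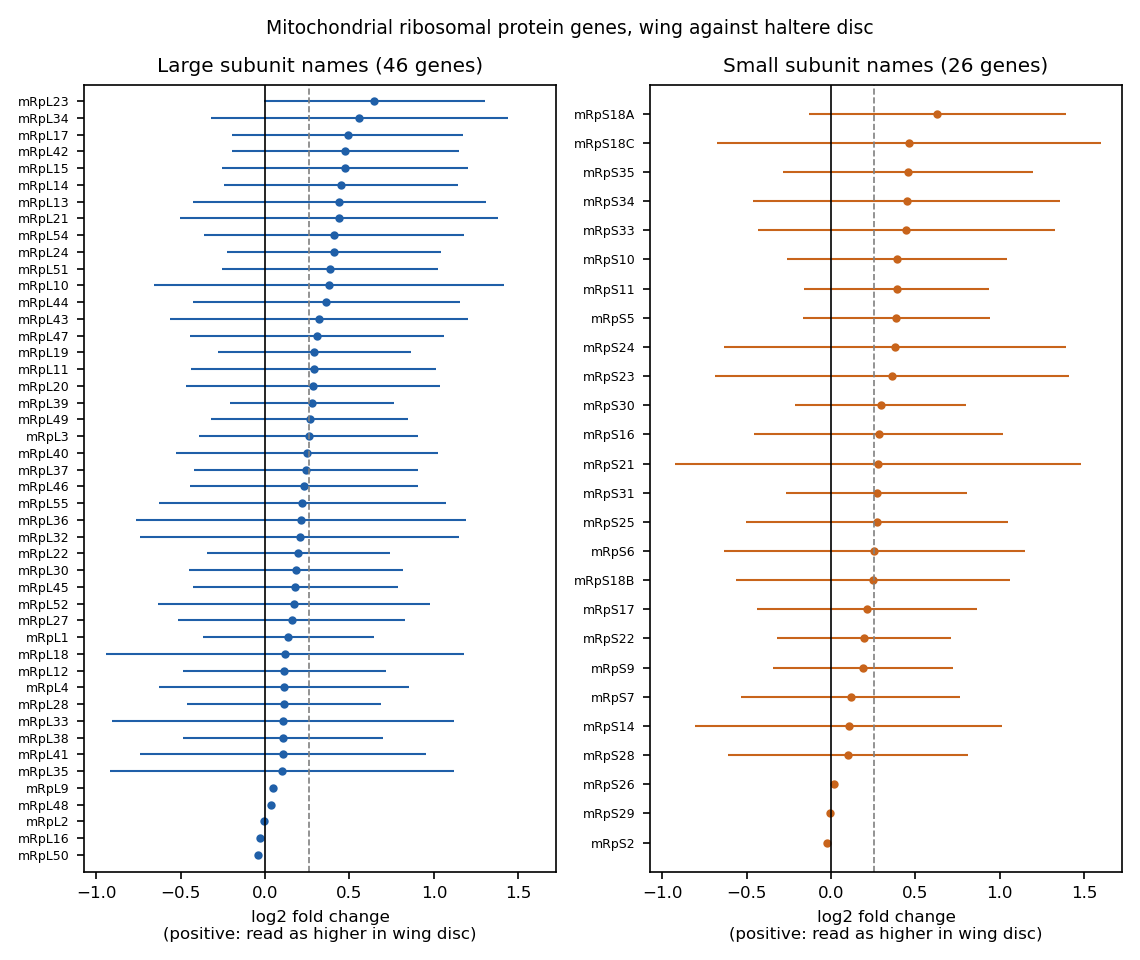
Log2 fold change of each of the 46 genes with large subunit names and 26 with small subunit names (points). Lines show the rough 95% interval implied by the authors' p-value (8 genes with a p-value of 0.9 or more have none). The solid line marks 0 and the dashed line the group median of 0.26. Points lie almost all to the right of 0, and each line crosses 0.

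Genes named for either subunit showed the lean. Of the 46 genes with large subunit names in the authors' deposited table, 43 were positive, with a median log2 fold change of 0.24. Of the 26 with small subunit names 24 were positive, with a median of 0.27. The subunit was read from the name alone, which for mRpS18A differs from the place of its mammalian counterpart. The lean was also present on both sides of an approximate split by family. The members assigned to families shared with bacteria had a median of 0.26 in the authors' deposited table, with 42 of 45 positive. For the 27 others the median was also 0.26, with 25 positive. The difference between these groups was not tested, because lists get no test here. The bacterial families were taken as numbers up to 36 in the large subunit and up to 21 in the small subunit. To these were added mRpL47, mRpS24 and mRpS28, because their mammalian counterparts belong to such families. Some of the 27 others, such as mRpL55, may also belong to such families, so the split is approximate.

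The regions of the ribosome were then taken in turn, with positions known from mammalian structures. Many genes with large subunit names were assigned to no region, so the counts by region do not cover that subunit. Near the exit tunnel, through which the new protein leaves, all 8 genes examined were positive, with a median of 0.33 in the authors' deposited table. The gene mRpL23, whose product sits at the tunnel exit, had the largest log2 fold change of all members, 0.65 with a rough standard error of 0.33 in the authors' deposited table (p = 0.0527, edgeR). It lies on the minus strand at chr3L:2372844-2373704. Its rough 95% interval ran from -0.0075 to 1.30. Of the other proteins near the exit, mRpL17 was at 0.49 ± 0.35 (rough SE), mRpL24 at 0.41 ± 0.32 and mRpL22 at 0.20 ± 0.28 in the authors' deposited table. For mRpL47, the counterpart of a bacterial protein at the exit, the value was 0.31 ± 0.38. The membrane-facing protein mRpL45 was at 0.18 ± 0.31 in the authors' deposited table. Each of these values lay within 2 rough standard errors of 0.

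The peptidyl transferase region, where peptide bonds form, had the median closest to 0 of the regions taken. Of its 5 genes 3 were positive, and the median was 0.11 in the authors' deposited table. Both negative genes of the region had values close to 0 in the authors' deposited table, with mRpL2 at -0.0074 (p = 0.986, edgeR) and mRpL16 at -0.032 (p = 0.927, edgeR). The others in the authors' deposited table were mRpL4 at 0.11 ± 0.38 (rough SE), mRpL27 at 0.16 ± 0.34 and mRpL3 at 0.26 ± 0.33. Whether this region differs from the exit tunnel genes was not tested.

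The stalks, which guide tRNAs and translation factors, had 4 positive genes of 4 in the authors' deposited table. The stalk base proteins mRpL10 and mRpL11 were at 0.38 ± 0.53 (rough SE) and 0.29 ± 0.37, mRpL1 of the opposite stalk at 0.14 ± 0.26, and mRpL12, the factor-binding stalk protein, at 0.11 ± 0.31. In the central protuberance, the crown of the large subunit, 6 of 6 genes were positive, with a median of 0.14 in the authors' deposited table and values from 0.034 for mRpL48 to 0.25 for mRpL40. The lowest member overall was mRpL50, at -0.042 in the authors' deposited table (p = 0.934, edgeR). Further large subunit genes stood near the top, mRpL34 at 0.56 ± 0.45 and mRpL42 at 0.48 ± 0.34 (rough SE, the authors' deposited table). The genes mRpL37 and mRpL55 were at 0.24 ± 0.34 and 0.22 ± 0.43 in the same table.

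In the small subunit head, 7 of 8 genes were positive, with a median of 0.23 in the authors' deposited table. The highest there was mRpS35, at 0.46 ± 0.38 (rough SE), followed by mRpS33 at 0.45 ± 0.45. Lower in the head were mRpS9 at 0.19 ± 0.27, mRpS7 at 0.12 ± 0.33 and mRpS14 at 0.10 ± 0.46 in the authors' deposited table. The GTP-binding protein mRpS29, known in mammals as death-associated protein DAP3, was at -0.0042 in the authors' deposited table (p = 0.994, edgeR). In the body and platform, 14 of 15 genes were positive, with a median of 0.27 in the authors' deposited table. The exception, mRpS2, was at -0.022 in the authors' deposited table (p = 0.968, edgeR). Among the positive genes were mRpS34 at 0.45 ± 0.46, mRpS11 at 0.39 ± 0.28 and mRpS5 at 0.39 ± 0.28 (rough SE, the authors' deposited table). The last 2 had small errors for a member, and their p-values were 0.163 and 0.168 (edgeR). The genes mRpS18A, mRpS24 and mRpS30, named for the small subunit, were assigned to neither the head nor the body and platform.

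Flies carry 3 paralogs of ribosomal protein S18, and all 3 were positive in the authors' deposited table. The gene mRpS18A, at chr3R:8561917-8562593 on the minus strand, had the second largest fold change of the members, 0.63 ± 0.39 in the authors' deposited table (rough SE; p = 0.105, edgeR). Its mammalian counterpart sits in the large subunit despite the name. The paralogs mRpS18C and mRpS18B were at 0.46 ± 0.58 and 0.25 ± 0.41 in the authors' deposited table. The errors do not separate the 3 paralogs.

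Some mitochondrial ribosomal proteins carry other names and fall outside the pattern. The gene tko (technical knockout) encodes protein S12 of the decoding centre, and its mutants are known for seizures after a mechanical shock. The authors' deposited table gave it 0.033 (p = 0.924, edgeR). The gene bonsai encodes protein S15 and was at 0.077 ± 0.33 (rough SE) in the same table. A further gene, CG4866, has mRpS4 as a synonym in RefSeq and was picked with its values known. It stood at 0.61 ± 0.41 in the authors' deposited table (p = 0.131, edgeR). Like the members, none of these was called.

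Levels were compared per length, as log2 of CPM per kilobase of annotated exon. The 72 genes had a median level of 3.97 on that scale, with quartiles of 3.33 and 4.35. The upper quartile was thus 2.04 times the lower, and 61 of the 72 genes lay within 2-fold of the median. Genes with large and small subunit names had median levels of 3.95 and 3.98. The highest levels per kilobase belonged to mRpL39 at 5.64, mRpL30 at 5.45, mRpL22 at 5.03, mRpL12 at 4.95 and mRpS16 at 4.86. The lowest were mRpS24 at 1.80, mRpL18 at 2.58, mRpL21 at 2.79, mRpL35 at 2.86 and mRpS18C at 2.91. The highest level was 14.2 times the lowest. These levels are means over both tissues from the authors' deposited table, with no error that can be given.

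Some members share exon bases with another gene. In the annotation 55.3% of the exon bases of mRpS24, the lowest member, also lie in exons of TBC1d7 on the opposite strand. For mRpS21, 48.0% lie in exons of CG8870. The 7 members with at least 20% of their exon bases in another gene had a median level of 3.04 per kilobase on the log2 scale, and the other 65 had 4.05. The groups overlapped, since mRpS9 with 25.1% shared had a level of 3.93, and mRpL21, low per kilobase, shared no exon base. The annotated exons of mRpL21 sum to 1696 bases, against a median of 783 for the members. Its mean expression before division by length was 3.55 log2 CPM, near the members' median of 3.68. The strand setting of the authors' counting is not stated, so reads of overlapping genes cannot be told apart with certainty, and the part of overlap in these levels was not tested. All 30 members whose exons overlap no other gene had positive log2 fold changes in the authors' deposited table, with a median of 0.25. Of the 42 members with some overlap, 37 were positive, with a median of 0.27. The part of overlap in the fold changes was not tested.

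Cytosolic ribosomal protein genes had a median level of 10.48 on the log2 scale per kilobase, and nuclear genes of the respiratory chain 5.56, both above the mitochondrial ribosomal protein genes. Genes that serve the mitochondrial ribosome were lower, with medians of 1.49 for translation factors and 1.87 for mitochondrial aminoacyl-tRNA synthetases, the enzymes that charge tRNAs with amino acids. In total the 72 genes held 0.183% of the CPM assigned to genes in the authors' deposited table, and 83 cytosolic ribosomal protein genes held 19.4%.

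**Figure D2:**
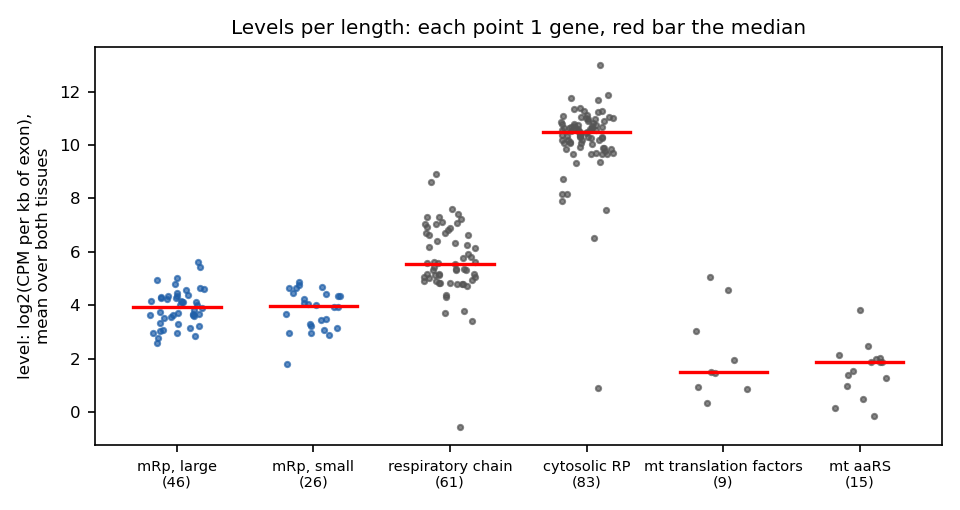
Level of each gene as log2 of CPM per kilobase of exon, a mean over both tissues (points, 1 per gene, with the median as a red bar). Shown are the members by subunit name and 4 other lists. The members' medians of 3.95 and 3.98 lie below those of the respiratory chain at 5.56 and the cytosolic ribosomal proteins at 10.48.

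Other genes of mitochondrial and cytosolic translation were set beside the members, and 0 genes of these lists were called at an FDR under 0.05 or at an unadjusted p-value under 0.05 (edgeR). Of the 83 cytosolic ribosomal protein genes, 75 were positive in the authors' deposited table, with a median of 0.14 and a maximum of 0.49 for RpL21. Of 61 nuclear respiratory chain genes 44 were positive, with a median of 0.086. The catalytic ATP synthase subunit gene ATPsyn-beta was at 0.31 ± 0.23 (rough SE) and SdhC of succinate dehydrogenase at -0.22 ± 0.33 in the authors' deposited table.

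Mitochondrial translation factors were positive in 7 of 9 cases, with a median of 0.15 in the authors' deposited table. Among them EfTuM, an elongation factor that delivers tRNAs, was at -0.094 ± 0.26 (rough SE), and mEFTs, listed as CG6412 and known to recycle that factor, at 0.38 ± 0.27. The mitochondrial aminoacyl-tRNA synthetases were evenly divided, with 8 of 15 positive and a median of 0.000835 in the authors' deposited table. Genes of mitochondrial DNA and RNA metabolism were positive in 7 of 10 cases, with a median of 0.067. They included the mitochondrial RNA polymerase gene mtRNApol at 0.28 ± 0.31 and the DNA packaging factor gene TFAM at 0.031 with a p-value of 0.921 (edgeR) in the authors' deposited table.

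**Figure D3:**
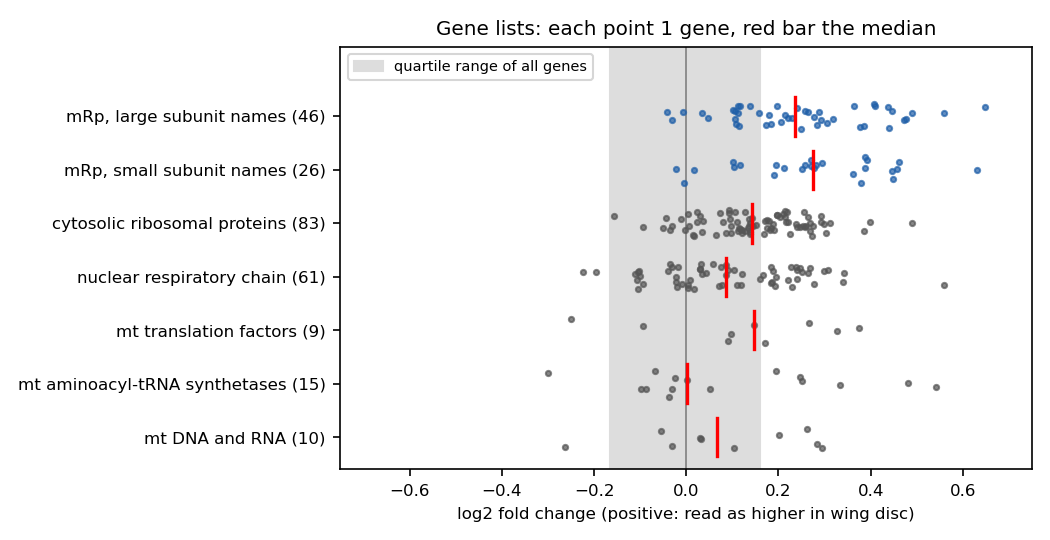
Log2 fold change of each gene (points) in the members by subunit name and in 5 other lists, with the median of each list in red. The grey band spans the quartiles of all genes, from -0.17 to 0.16. The band shows the spread of single genes, not of a list's median. The medians are 0.24 and 0.27 for the members and run from 0.000835 to 0.15 for the 5 other lists, and the points of the lists overlap.

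Regulators of growth and of mitochondrial genes were examined as a list of 7, with 5 positive in the authors' deposited table. The growth regulator Myc, listed as dm and known in flies to raise ribosomal gene expression, was at 0.40 ± 0.33 in the authors' deposited table (rough SE; p = 0.222, edgeR). The fly PGC-1 homolog srl (spargel), a coactivator for nuclear genes of mitochondria, was at 0.33 ± 0.29 in the authors' deposited table (p = 0.259, edgeR). The transcription factor crc, the fly ATF4, was at 0.26 ± 0.26 and the promoter-binding factor Dref at 0.16 ± 0.24 in the authors' deposited table. The kinase gene Tor was at 0.016 in the authors' deposited table (p = 0.954, edgeR). Its partner raptor was at -0.12 ± 0.29, and ewg, the fly relative of the vertebrate nuclear respiratory factor, at -0.15 ± 0.25. None of the 7 was called.

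Gene length moved with the fold change across the whole table, and the members are short genes. Their exons summed to a median of 783 bases, against 2248 for the other protein-coding genes analysed. Across 7658 genes Spearman's rho between exon length and log2 fold change was -0.27, and across the 72 members it was -0.22. These genes share the same libraries, so no p-value is given. All genes were put in 10 bins of exon length. In the shortest bin, up to 899 bases, the median of 723 other genes was 0.13 in the authors' deposited table, and that of the 43 members was 0.27. In the next bin, up to 1214 bases, the medians were 0.079 for 749 other genes and 0.23 for 17 members. In the longest bin the median was -0.15, and it held no member.

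A closer set held 545 other genes within the middle 80% of the members' range of exon length (547.2 to 1291.4 bases) and of mean expression (2.47 to 4.52 log2 CPM). Their median was 0.12 in the authors' deposited table, and 69.7% of them were positive. The members' median exceeded it by 0.14, against 0.26 when set beside all genes. Short genes of like expression thus leaned the same way, by about 0.12, and the part of length in the members' values was not tested. Mean expression itself showed little relation with the fold change, with a Spearman's rho of 0.015 over all genes.

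**Figure D4:**
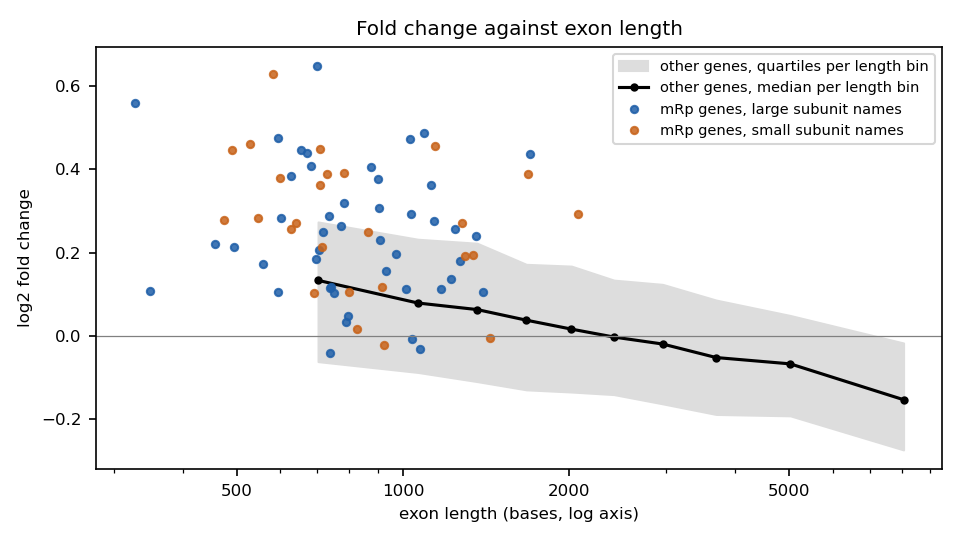
Log2 fold change against exon length in bases (log axis) for the 72 members (coloured points) and, for other genes, the median (black line) and quartiles (grey band) in 10 bins of exon length, drawn at each bin's median length. The black line falls from 0.13 to -0.15 and most members lie above it.

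Markers of larval muscle, fat body and salivary gland had negative values. In the authors' deposited table all 11 larval muscle markers were negative, 8 of them called at an FDR under 0.05 (edgeR), with log2 fold changes from -2.51 to -0.60. All 6 fat body markers were negative and 5 were called, from -4.95 to -2.85, and all 5 salivary gland markers analysed were negative and called, from -4.19 to -2.97. The 5 hemocyte markers were negative and none was called, from -0.54 to -0.25. Of 4 tracheal markers none was called, with 3 negative, from -0.76 to -0.27, and trh positive at 1.03 (p = 0.00128, FDR 0.0859, edgeR, the authors' deposited table). The part of such tissue in the members' values was not tested. Of 5 disc epithelium markers none was called, and nub and vg, which specify the wing pouch, were positive at 0.81 and 0.82, with FDR values of 0.0878 and 0.195 (edgeR, the authors' deposited table). The other 3, ap, tsh and hth, were at -0.082, -0.22 and -0.37 in the authors' deposited table, and the list's median was -0.082. In bulk samples a smaller share of cells of a type and less RNA per cell cannot be told apart.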

How the data were processed

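RNA of 3 haltere disc and 3 wing disc samples, grouped by title, was extracted with Trizol, enriched for mRNA and made into directional libraries, per the labels' protocols. The submitters' processing notes name HISAT2, HTSeq, edgeR and build dm6, with no roles or versions. The authors deposited 1 comparison: a log2 fold change, a mean log2 CPM, a p-value and an FDR per gene, per the file headers. The edgeR test, filter and annotation are not given in the sources used here. Of 7767 rows, 5 are read-counter summary lines, holding 43.3% of summed CPM; they were left out of gene counts. The planned fallback, the authors' FDR under 0.05, was the call rule, and no test across samples was run. Library depth is unknown, so no interval from counts is given. No column held values per sample (0 set aside).

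RefSeq (Release 6 plus ISO1 MT) gave current names, through a gene's symbol or a synonym that only 1 gene carries. Exon lengths (all exons of a gene, overlaps counted once), overlaps and coordinates came from Ensembl release 115, build BDGP6.54 (dm6 coordinates), which matched 7658 of 7762 genes (98.7%) and all 72 members. The rough standard error assumes a normal test, which the authors' test need not be. Named were Ubx, the 5 largest changes in each direction, the 5 highest and lowest levels per kilobase, fixed members by role, and fixed regulators; other genes illustrate their lists. The members and lists were chosen with earlier results of these data known; the regions of the ribosome, the split by bacterial family, exon overlap and divergent neighbours were added after values were seen. Computations used Python 3.11.15, pandas 2.3.3, NumPy 2.4.6, SciPy 1.17.1 and matplotlib 3.10.9.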

Additional observations from a re-analysis of the deposited data

How the results depend on the processing

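The count of called members was 0 under an FDR under 0.01 or 0.1, a Bonferroni adjustment and Benjamini-Hochberg over the gene rows alone. It was also 0 at a minimum of 1 log2 CPM and, added after the data were seen, at an unadjusted p-value under 0.05 (all on the edgeR p-values). The members' smallest p-value was 0.0527 (edgeR), so these rules had little room to give another count. Over all genes the count was 104; it went to 50 under Bonferroni and 335 at an unadjusted p-value under 0.05, which follows from the stricter and looser rules. The members' median log2 change, 0.26, was between 0.25 and 0.26 when centred on all genes, taken as a mean, limited to at least 3 log2 CPM, widened to the planned list of other names (tko, bonsai and Rlb1, whose role is not described here), or, added after the data were seen, widened to tko, bonsai and CG4866 or limited to members without exon overlap. Relative to other genes it was 0.14 within the members' range of length and expression and 0.16 within that of length alone, the latter added after the data were seen. The cause was not tested. No paired analysis was possible because each gene has 1 value and none per sample, although the titles share replicate numbers. For the same reason DESeq2 and leaving out each replicate were not run, so whether 1 library moves all members is not known.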

Other observations

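The members are compact genes that often sit head to head with another gene. Their proteins have a median of 193 residues in the annotation, from 64 for mRpL33 to 557 for mRpS30, against 487 for the other protein-coding genes analysed. For 51 of the 72 (70.8%), a protein-coding gene on the opposite strand starts within 500 bases upstream, and this holds for 35.7% of the other protein-coding genes. Of these 51 neighbours, 44 were matched to the authors' deposited table. Of these 44 genes 24 were positive, with a median log2 fold change of 0.025 and 0 called at an FDR under 0.05 (edgeR; smallest unadjusted p-value 0.00488). Over all 2667 genes outside the members with such a neighbour, a set that includes these 44, the median was 0.021 in the authors' deposited table. The difference was not tested, and the neighbours are longer genes, with a median exon length of 2365 bases.

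A few pairs show the range. The gene mRpL34 was at 0.56 in the authors' deposited table, and its neighbour Dg, which encodes the matrix receptor dystroglycan, at -0.13 ± 0.29 (rough SE). For mRpL24 the value was 0.41 and for its neighbour betaggt-I, a prenyltransferase subunit gene, -0.31 ± 0.30. At the other end, the nucleolar GTPase gene Ns1 was at 0.65 ± 0.23 (p = 0.00488, FDR 0.238, edgeR) beside mRpS11 at 0.39 in the authors' deposited table. The methyltransferase gene Art3 was at 0.69 ± 0.25 in the authors' deposited table (p = 0.00646, FDR 0.289, edgeR) beside mRpS10 at 0.39. One pair joins 2 mitochondrial complexes: mRpL55 was at 0.22 ± 0.43 and its neighbour ATPsyn-d, an ATP synthase subunit gene, at -0.022 in the authors' deposited table. These pairs were chosen after their values were seen.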
